A study of Mus musculus with 12 samples.

Results

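The histone genes of the mouse kidney were examined in RNA-seq counts from 12 animals. They were chosen by gene name alone: a row was taken where its name is that of an H1 linker histone or of an H2A, H2B, H3 or H4 gene of the histone clusters, and pseudogene rows marked -ps were left out. This gave 70 of the 54532 genes in the table, of which 10 encode H1, 19 H2A, 17 H2B, 12 H3 and 12 H4. Most lie in clusters on chromosome 13 (56 genes) and chromosome 3 (10 genes), but the name rule also took 4 linker histone genes outside the clusters, *H1f0* and *H1f7* on chromosome 15 and *H1f10* and *H1f8* on chromosome 6, and 2 rows annotated as pseudogenes, *H2ac14* and *Hist1h2al*. The family was taken up because *H1f3* was known to be among the largest falls in cystic kidneys with wild-type *Pkd2*, so that comparison is given below as a description with no test.

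All mice were C57BL/6 by the labels (C57BL/6 J in the study's methods), all were 18 days old, and every group carried the hypomorphic RC allele of *Pkd1* together with a floxed *Pkd1* allele. In the cystic mice a Cre recombinase under the Ksp-cadherin promoter, which is active in kidney tubule epithelium, had removed the floxed allele (*Pkd1* RC/-). The noncystic mice, labelled control, had no Cre (*Pkd1* RC/F, also written RC/+). Each condition was studied with wild-type *Pkd2* (*Pkd2* +/+) or with the miR-17 motif deleted from the 3′-UTR of both *Pkd2* copies (*Pkd2* Δ17/Δ17, DD in the sample titles), which gave 4 groups of 3 mice. The mice are called here by the numbers in their titles, 19 to 21 and 22 to 24 for noncystic +/+ and Δ17/Δ17, and 25 to 27 and 28 to 30 for cystic +/+ and Δ17/Δ17. By their *Xist* and *Ddx3y* levels, mice 19, 22, 23, 25, 26 and 28 were female and the others male. Whole kidneys were sequenced, so each value is a mean over all kidney cell types. *Pkd2* itself stood at 194 to 219 CPM (counts scaled to the size of each library with TMM factors) in noncystic and 213 to 233 CPM in cystic *Pkd2* +/+ kidneys, against 270.5 to 286 and 307 to 337 CPM in the Δ17/Δ17 kidneys of the same conditions.

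Core histones H2A, H2B, H3 and H4 form the nucleosome around which DNA is wound, and the H1 linker histones bind where the DNA enters and leaves it. Most clustered histone genes are replication-dependent: they are transcribed in S phase, and their mRNA ends, without a poly(A) tail, just after a conserved stem-loop that the stem-loop binding protein recognises. Linker genes such as *H1f0* and *H1f10* are expressed outside S phase as well, with polyadenylated mRNA, and *H1f0* is known for its level in cells that have stopped dividing. In proliferating tissue, replication-dependent histone mRNA usually accompanies DNA synthesis, and polycystic kidneys are known for proliferation of the cyst epithelium.

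The stem-loop is shown first, because it decides whether a poly(A) tail is normally present and because its position in the annotated transcript differs between the genes described below. It was searched as 6 paired bases starting with GG, 3 pyrimidines and a T in the strand of the gene, with a 4-base loop. A match was found in 43 of the 70 genes, against 0.421% of 21833 other protein-coding genes, and 24 of the 43 carry the same 16 bases. The genes whose values are described in most detail read as follows in GRCm38, with the 16 bases of the match in capitals:
H1f2: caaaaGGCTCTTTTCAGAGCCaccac
H1f3: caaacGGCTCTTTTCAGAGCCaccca
H1f4: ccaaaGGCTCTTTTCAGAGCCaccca
H2bc6: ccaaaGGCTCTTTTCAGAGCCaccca
H3c15: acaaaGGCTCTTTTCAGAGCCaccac
H4c8: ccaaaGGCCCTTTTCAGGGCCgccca
H4c9: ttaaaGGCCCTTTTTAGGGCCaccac

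The matches lie on chromosome 13 at chr13:23739512-23739527 for *H1f2*, chr13:23555787-23555802 for *H1f3*, chr13:23621782-23621797 for *H1f4*, chr13:23585531-23585546 for *H2bc6*, chr13:23531458-23531473 for *H4c8* and chr13:22040966-22040981 for *H4c9*, and on chromosome 3 at chr3:96238485-96238500 for *H3c15*. *H1f4*, *H2bc6*, *H3c15* and *H4c9* are on the reverse strand and the others on the forward strand. Each match lies within a single exon. The annotated transcript does not end there. It runs on for 4884 bases in *H1f3*, 1861 in *H2bc6*, 1153 in *H1f4*, 840 in *H1f2*, 377 in *H3c15* and 330 in *H4c9*, but for only 46 in *H4c8*. No match was found in *H1f0*, *H1f10*, *H2bc21* or the spliced transcript of *H2bc4*, which says only that these letters are absent from the annotated transcripts.

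Total counts per mouse ran from 18800307 to 24453033, and the 70 genes together took 0.0493% to 0.0749% of them. The TMM factors were 0.933 to 0.972 in noncystic and 1.04 to 1.08 in cystic libraries, and with library totals alone the median log2 fold change of all genes between cystic and noncystic kidneys moved by 0.16 (*Pkd2* +/+) and 0.15 (*Pkd2* Δ17/Δ17). No pair of libraries within a group was a repeat of the other.

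Nearly all histone reads came from a few genes. *H1f0*, *H1f2*, *H2bc4*, *H2bc21* and *H1f10* held 96.5% of the reads of the family, and *H1f0* alone had 93802 reads over the 12 mice. In GRCm38 *H1f0* (ENSMUSG00000096210) spans chr15:79028450-79030504, *H1f2* (ENSMUSG00000036181) chr13:23738808-23740367, *H2bc4* (ENSMUSG00000018102) chr13:23684199-23692908, *H2bc21* (ENSMUSG00000068854) chr3:96221119-96223738 and *H1f10* (ENSMUSG00000044927) chr6:87980421-87981637, the last on the reverse strand and the others on the forward strand. *H1f3* (ENSMUSG00000052565) spans chr13:23553262-23560686, forward strand. The other 65 genes held 3.52%, with a median of 19 reads per gene over all 12 mice. No read was counted on 12 genes in any mouse, 48 genes stayed under 10 reads in every mouse, and 47 passed the cutoff on low counts (average log2CPM not under -3) and entered the tests. The 23 genes that did not pass had at most 3 reads in any mouse, so a difference in them was not detectable from these counts. Among those at 0, *H2ac18*, *H2ac19*, *H3c13*, *H3c14* and *H2bc18* share every 100-base stretch of their transcripts with other genes. Their counts therefore do not show that their RNA was absent. By type, H1 genes took 83.4% of the reads, H2B genes 14.4%, H4 genes 1.52%, H3 genes 0.428% and H2A genes 0.213%, the last although H2A has the most genes.

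Per kilobase of annotated exon, the order of the mean level was *H1f0* at 189.9 CPM per kb, *H2bc4* at 56.1, *H1f2* at 49.2, *H1f10* at 7.43, *H2bc21* at 6.08, *H4c8* at 5.91 and *H4c9* at 5.27. *H4c12* followed at 1.84 and *H3c15* at 1.28, and the long *H1f3* transcript stood at 0.351. The 20 genes with a stem-loop followed by at least 100 annotated bases had a median of 88.5 reads, the 23 with fewer bases after it 19, and the 27 without a match 7. These medians are descriptions of the annotation and the counts, in which gene length and reads shared between near-identical copies also enter. Over the 70 genes, a median of 35.7% of the 100-base stretches of a transcript also occur in another gene, and the share was 76.2% for H2A genes. It was 3.27% for *H1f0*, 5.07% for *H1f2*, 10.2% for *H1f10* and 0.792% for *H1f3*, and no stretch of *H2bc21* was shared, but it was 61.6% for *H3c15*, 38.5% for *H4c8* and 25.4% for *H2bc4*, so the values of these last 3 are uncertain. The exons of *H1f4* and *H2bc6* overlap each other, which makes both uncertain, *H1f10* overlaps *Gm47286*, a predicted miRNA gene, on its own strand and *Gm5577* on the other, and *H1f0* overlaps *Gm49544* on the other strand, so *H1f10* and *H1f0* are also uncertain.

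**Figure D1:**
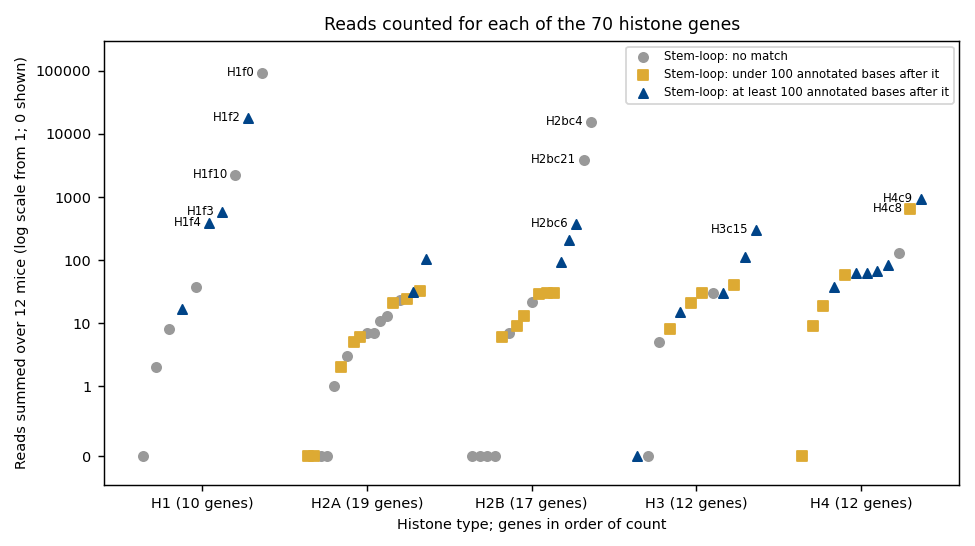
Reads summed over the 12 mice (y axis, log scale from 1 with 0 shown) for each of the 70 histone genes, by histone type along the x axis, with the symbol giving the stem-loop class. Labels mark the 11 genes averaging at least 0 on the log2CPM scale, of which *H1f0* reached 93802 reads, while 12 genes sat at 0.

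The promoters were compared as well, because genes of the family are known to share control elements. For 55 of the 70 genes RefSeq (GRCm38.p6) gave the 250 bases before and 50 after the start site. The octamer ATTTGCAT, on either strand, was found in 7 of 12 H2B and 6 of 14 H2A promoters, in none of the 10 H1, 10 H3 and 9 H4 promoters, and in 1.92% of 26970 other genes. Some H2A and H2B genes, such as *H2ac8* and *H2bc8*, start close together on opposite strands. Their windows overlap, so the same match can count for both genes. The octamer of *H2bc6*, capitals below, starts at base -67 from the start site in this window.
H2bc6 promoter: gtaagacttaATTTGCATaagactgcct

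That window is chr13:23586020-23586047, reverse strand. CCAAT, on either strand, was found in all H2A, H2B and H3 promoters, in 7 of 10 H1 and 3 of 9 H4 promoters, and in 41.0% of the other genes. TATAAA, on either strand, was found in 4 of 10 H1, 10 of 14 H2A, 6 of 12 H2B, 4 of 10 H3 and 6 of 9 H4 promoters, and in 15.6% of the others. These matches are descriptions of the letters and do not show that a factor binds.

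Among the *Pkd2* Δ17/Δ17 mice, which did not enter the comparison that drew attention to the family, several clustered histone genes had lower transcript levels in cystic than in noncystic kidneys, and the linker gene *H1f10* had higher ones. Of the 47 genes tested, 8 fell and 1 rose at an adjusted p under 0.05 by edgeR, where 10.2% of all 24642 genes fell and 12.8% rose. The fallers were the linker genes *H1f2*, *H1f3* and *H1f4*, the H2B genes *H2bc4*, *H2bc21* and *H2bc6*, the H3 gene *H3c15* and the H4 gene *H4c8*. All 9 calls were among the 11 genes whose log2CPM averaged at least 0, and the other 36 were rarer. That average runs over all 12 mice. *H1f3*, *H1f4*, *H2bc6* and *H3c15* stood at 0.832 CPM or less in every cystic mouse, so they reach it through their noncystic values. At an unadjusted p under 0.05 by edgeR, 11 of the 47 were lower and 2 higher, against 3689 and 4391 of all 24642 genes. The median log2 fold change of the 47 genes was -0.81, against -0.00 over all genes, and 32 of the 47 were below 0. Without overlap between the groups, 12 of the 47 were lower in cystic kidneys and 2 higher, where 17.7% and 20.2% of all genes were. Of the 12, 4 averaged under 0 in log2CPM and rest on few reads. The values below are log2 fold changes ± SE from edgeR's quasi-likelihood fit, with p adjusted over all genes. In whole kidneys, fewer cells that express a gene and less RNA per cell cannot be told apart.

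*H1f2* encodes one of the replication-dependent somatic linker histones and was the most abundant clustered H1 gene. In noncystic Δ17/Δ17 mice it stood at 81.9, 79.9 and 114 CPM, and in cystic Δ17/Δ17 mice at 41.0, 40.6 and 37.4 CPM. Every cystic mouse was lower than every noncystic mouse, and the log2 fold change was -1.21 ± 0.14 (adjusted p = 1.18e-05 by edgeR). *H1f3*, a linker histone of the same kind, stood at 2.67, 1.64 and 4.46 CPM in noncystic and at 0.433, 0.636 and 0.192 CPM in cystic Δ17/Δ17 mice. With 30 to 81 reads in the first group and 4 to 13 in the second, it fell by 2.78 ± 0.49 on the log2 scale (adjusted p = 0.000511 by edgeR). *H1f4* showed the same order without overlap, from 1.47, 2.56 and 4.18 CPM to 0.625, 0.244 and 0.433 CPM (-2.64 ± 0.50, adjusted p = 0.000906 by edgeR).

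Of the linker genes known outside S phase, 1 rose and the other did not pass. *H1f10*, which encodes a replacement linker histone, rose from 6.21, 3.87 and 5.28 CPM to 11.5, 13.7 and 8.90 CPM without overlap (1.15 ± 0.20, adjusted p = 0.000362 by edgeR). *H1f0* stood at 385, 306 and 385 CPM in noncystic and at 377, 391 and 396 CPM in cystic Δ17/Δ17 mice, and the groups overlapped. Its log2 fold change of 0.11 ± 0.10 (adjusted p = 0.472 by edgeR) did not pass, but with library totals in place of TMM it was 0.27 and passed (adjusted p = 0.0367), within a range of 0.0303 to 0.602 over the alternatives. The other linker genes were near the limit of counting: *H1f5* had 0 to 7 reads per mouse, *H1f6* 0 to 6, *H1f8* 0 to 3, *H1f1* 0 or 1, and *H1f7* none. *H1f6*, *H1f7* and *H1f8* are known from germ cells.

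*H2bc4*, an H2B gene whose annotated transcript is spliced, stood at 83.9, 78.4 and 82.5 CPM in noncystic and at 46.0, 45.9 and 38.4 CPM in cystic Δ17/Δ17 mice. The cystic mice were lower without overlap (-0.91 ± 0.09, adjusted p = 2.04e-06 by edgeR). *H2bc21*, on chromosome 3, differed less: 17.9, 17.5 and 18.0 CPM against 14.7, 13.7 and 13.9 CPM (-0.34 ± 0.11, adjusted p = 0.0300 by edgeR). This call was lost with library totals (-0.19, adjusted p = 0.238), with limma-trend, which also used library totals, without the cutoff on low counts, and without mouse 22, 24, 29 or 30 (adjusted p up to 0.0974). *H2bc6* had 29 to 56 reads in noncystic and 3 to 12 in cystic Δ17/Δ17 mice. It went from 1.91, 1.58 and 3.08 CPM to 0.144, 0.587 and 0.481 CPM and fell by 2.42 ± 0.44 on the log2 scale (adjusted p = 0.000583 by edgeR).

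Of the H3 and H4 genes, 1 each fell. *H3c15* went from 1.58, 1.53 and 1.76 CPM to 0.817, 0.733 and 0.481 CPM without overlap (-1.25 ± 0.33, adjusted p = 0.00972 by edgeR), and it missed the threshold without mouse 30 (adjusted p = 0.0537). *H4c8* went from 3.98, 3.11 and 3.69 CPM to 1.87, 1.61 and 1.2 CPM (-1.2 ± 0.27, adjusted p = 0.00378 by edgeR). *H4c9*, the H4 gene with the most reads, stood at 4.58, 3.38 and 2.75 CPM in noncystic and 2.93, 2.79 and 2.60 CPM in cystic Δ17/Δ17 mice. These values overlapped, and the log2 fold change of -0.36 ± 0.28 did not pass (adjusted p = 0.419 by edgeR). The H2A gene with the most reads, *H2ac6*, had 3 reads in each cystic Δ17/Δ17 mouse against 5 to 14 in noncystic ones (-1.72 ± 0.62, adjusted p = 0.0563 by edgeR). The next genes of each core type had too few reads to say more. *H3c4* had 9 to 12 reads against 5 to 8 (-0.96 ± 0.42, adjusted p = 0.125 by edgeR), and *H4c12* had 6 to 11 against 5 to 7 (-0.83 ± 0.68, adjusted p = 0.442). *H3c3*, *H2ac8* and *Hist1h2ao* had 0 to 7 reads in every mouse.

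**Figure D2:**
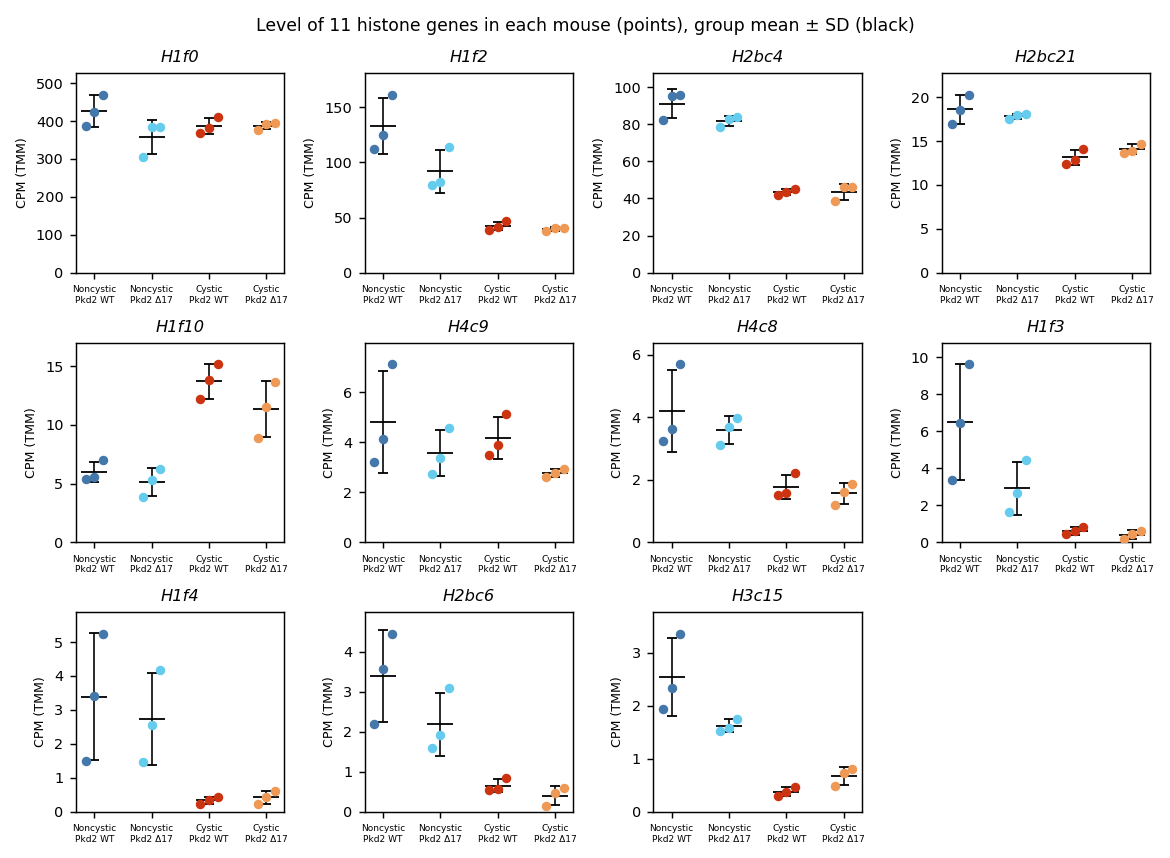
Level in CPM (y axis from 0, TMM scaled) of the 11 histone genes averaging at least 0 in log2CPM, for each mouse (points) in the 4 groups along the x axis, with group mean ± SD in black (n = 3). All genes but *H1f0*, *H4c9* and *H1f10* sat lower in both cystic groups than in both noncystic groups without overlap, and *H1f10* sat higher.

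In the *Pkd2* +/+ kidneys, the comparison in which *H1f3* had been noticed, the values were as follows. The family was selected on this comparison, so the values are a description and no p is given. By the same call rule 16 of the 47 genes were lower in cystic kidneys and 1 was higher, where 14.2% of all genes were lower and 16.9% higher, and nothing is read from these counts. *H1f3* stood at 3.37, 9.64 and 6.46 CPM in noncystic and at 0.813, 0.587 and 0.424 CPM in cystic mice, a log2 fold change of -3.38 ± 0.46. *H1f4* went from 1.51, 5.25 and 3.41 CPM to 0.426, 0.343 and 0.235 CPM (-3.29 ± 0.51). *H1f2* went from 112, 161 and 125 CPM to 38.9, 46.7 and 41.5 CPM (-1.65 ± 0.14). For each of these linker genes the noncystic mice differed among themselves by more than the cystic mice did, with mouse 20 the highest of all 12.

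*H2bc4* went from 94.9, 95.9 and 82.1 CPM in noncystic to 45.2, 42.0 and 43.3 CPM in cystic *Pkd2* +/+ mice (-1.06 ± 0.09). The values of *H2bc6* were 2.18, 4.45 and 3.56 CPM against 0.542, 0.832 and 0.565 CPM (-2.39 ± 0.40), and those of *H2bc21* were 18.6, 16.99 and 20.3 CPM against 14.1, 12.9 and 12.4 CPM (-0.50 ± 0.11). None of these H2B genes overlapped between the groups. *H3c15* went from 2.34, 3.36 and 1.93 CPM to 0.465, 0.294 and 0.377 CPM (-2.71 ± 0.34), and *H4c8* from 3.63, 5.70 and 3.26 CPM to 2.21, 1.57 and 1.51 CPM (-1.24 ± 0.27). *H4c9* overlapped, at 3.22, 7.13 and 4.12 CPM against 3.91, 3.48 and 5.13 CPM (-0.20 ± 0.27, and 0.16 without mouse 20). *H1f10* was higher in the cystic mice, at 5.56, 7.01 and 5.39 CPM against 12.2, 15.2 and 13.8 CPM (1.196 ± 0.19). *H1f0* overlapped, at 425, 469.8 and 386 CPM against 369, 411 and 382 CPM, and its log2 fold change changed sign with the scaling, from -0.14 with TMM to 0.02 with library totals.

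**Figure D3:**
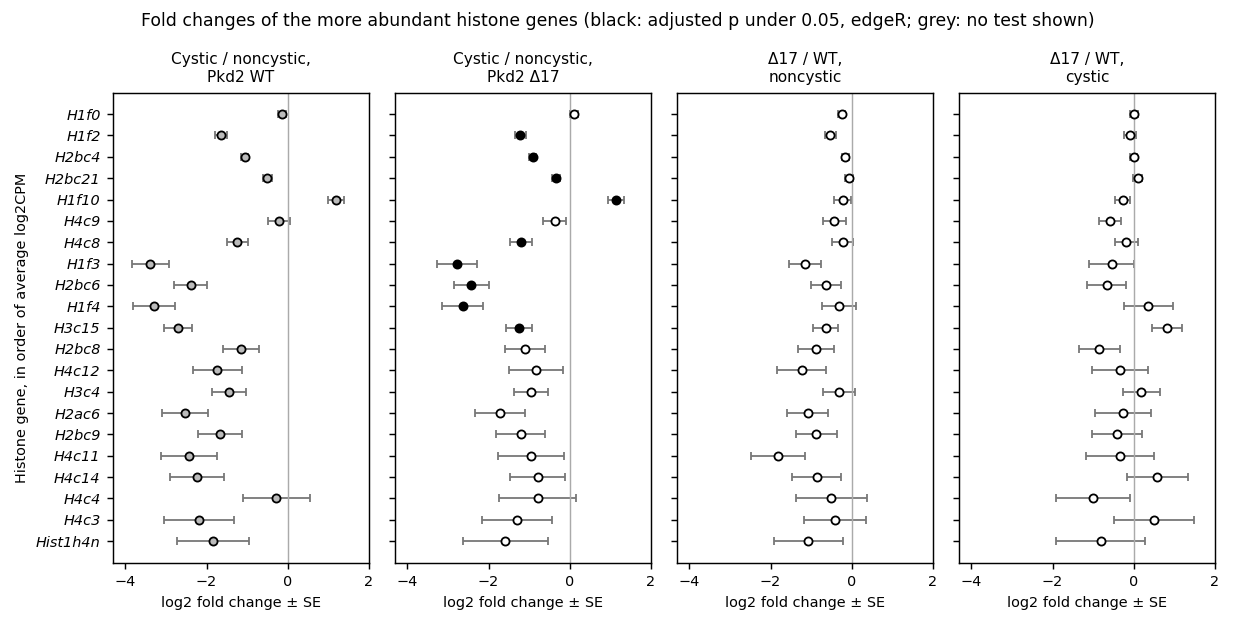
Log2 fold change ± standard error (x axis) of the 21 histone genes averaging at least -2 in log2CPM (y axis), in 4 panels for cystic over noncystic kidneys in each *Pkd2* genotype and for Δ17/Δ17 over +/+ in each condition. Black points passed an adjusted p under 0.05, and grey points carry no test: *H1f3* lay at -3.38 and -2.78 in the 2 disease panels, and no point passed in either panel of the deletion.

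The linker histone make-up of the kidneys differed accordingly. Of the summed H1 level per kilobase, *H1f2* made up 28.2% ± 2.63 (SD, n = 3) in noncystic *Pkd2* +/+ and 24.52% ± 3.0 in noncystic Δ17/Δ17 kidneys, against 11.9% ± 0.379 and 11.3% ± 0.629 in the cystic kidneys of the same genotypes. *H1f10* made up 1.63% ± 0.0447 and 1.75% ± 0.287 in noncystic and 4.95% ± 0.259 and 4.16% ± 0.848 in cystic kidneys. The range of *H1f0* was 66.7% to 76.1% over the 6 noncystic mice and 82.4% to 85.9% over the 6 cystic mice, so its share was higher in every cystic mouse although its CPM overlapped. *H1f3*, *H1f4* and *H1f5* each stayed under 1% in every mouse. The share of *H1f3* depends on its annotated length of 7425 exonic bases, against 1217 for *H1f10*. In CPM it stood at 6.49 in noncystic *Pkd2* +/+ kidneys, against 5.99 for *H1f10* (group means). A share rises when the other genes fall, so these shares show unequal change and not that *H1f0* rose. The +/+ mice are those of the comparison on which the family was selected, so the shares are a description and were not tested. Among the Δ17/Δ17 mice alone, the *H1f0* share was 69.8% to 76.1% in noncystic and 83.5% to 85.9% in cystic kidneys.

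**Figure D4:**
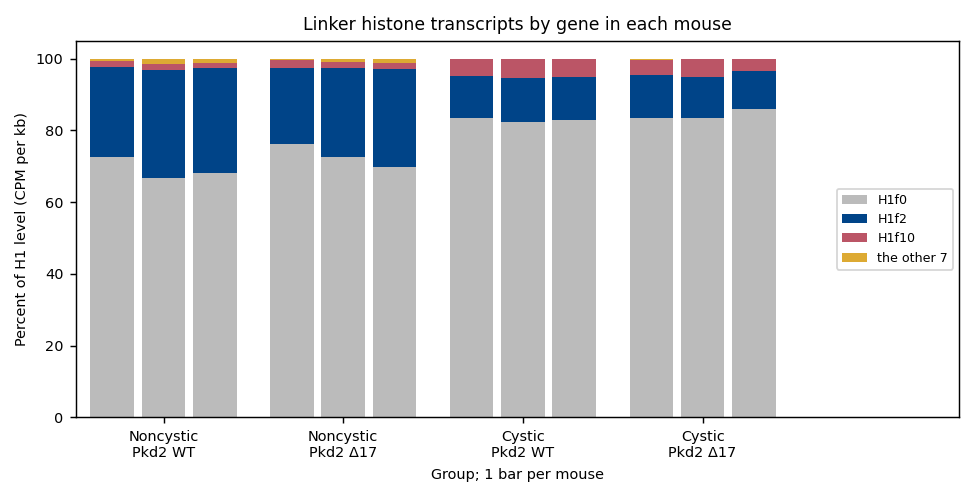
Share of the summed H1 level (y axis, percent of CPM per kb) taken by *H1f0*, *H1f2*, *H1f10* and the other 7 H1 genes, with 1 bar for each mouse in the 4 groups along the x axis. The *H1f2* share was 21.3% to 30.2% in the noncystic bars and 10.7% to 12.3% in the cystic bars.

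Summed over genes, the family without *H1f0* reached 285 ± 42.3 CPM (SD, n = 3) in noncystic and 126 ± 3.01 CPM in cystic *Pkd2* +/+ kidneys, and 219.8 ± 24 and 119.5 ± 9.5 CPM in the Δ17/Δ17 kidneys. The 65 genes outside the 5 most abundant summed to 36.01 ± 14.1 and 13.1 ± 0.799 CPM with *Pkd2* +/+, and to 23.2 ± 3.01 and 10.98 ± 0.950 CPM with Δ17/Δ17. In Δ17/Δ17 kidneys the noncystic over cystic ratio of the summed level was 2.35 for genes with a stem-loop and at least 100 bases after it, 1.48 for those with fewer bases after it, and 1.01 for genes without a match. A single gene led each class: *H1f2* held 83.6% of the reads of the first, *H4c8* 62.2% of the second and *H1f0* 81.3% of the third. Without that gene the ratios were 2.53, 0.747 and 1.51, so the second turned. These sums are descriptions and were not tested.

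Deletion of the *Pkd2* motif changed no histone gene past the threshold. The +/+ mice of these comparisons are the mice of the comparison on which the family was selected, and the interaction contains that comparison, so none of the values is independent of the selection. In cystic kidneys, 0 of the 47 genes were called by edgeR's test, where 2.23% of all genes were called. At an unadjusted p under 0.05 by edgeR there was 1 of the 47, against 3532 of all 24642 genes. It was *H3c15*, which was higher in Δ17/Δ17 than in +/+ cystic mice without overlap (0.81 ± 0.37). DESeq2 and limma-trend also called 0. *H1f2* differed by -0.10 ± 0.14 and *H2bc4* by -0.00 ± 0.09. The errors were larger for *H1f3* (-0.55 ± 0.56), *H1f4* (0.36 ± 0.60) and *H2bc6* (-0.66 ± 0.48), so smaller differences in these could not be seen.

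In noncystic kidneys 37 of the 47 genes were lower with Δ17/Δ17 than with +/+, where 48.6% of all genes were, but 0 of the 47 genes were called by edgeR's test, and 0 by DESeq2 and limma-trend, with 0.00406% of all genes called. At an unadjusted p under 0.05 by edgeR there were 7, all lower with the deletion, where 752 of all 24642 genes were lower. The median of the 47 was -0.50, against 0.01 over all genes. *H1f2* stood at 112, 161 and 125 CPM with +/+ and at 81.9, 79.9 and 114 CPM with Δ17/Δ17 (-0.53 ± 0.14), and the mouse at 114 CPM overlapped the +/+ group. *H1f0* did not overlap (-0.25 ± 0.10), and *H1f3* differed by -1.15 ± 0.39. Sex was unequal between these groups: mouse 19 of +/+ and mice 22 and 23 of Δ17/Δ17 were female, and the rest male. The disease comparisons were not balanced for sex either, since mice 25 and 26 of cystic +/+ and mouse 28 of cystic Δ17/Δ17 were female. The *H1f2* values of the noncystic males (161, 125 and 114 CPM) lay above those of the females (112, 81.9 and 79.9 CPM). Those of *H1f3* did so too, while those of *H1f0* overlapped between the sexes. Sex was a covariate in an alternative fit, but its own part in these differences was not tested. Without the cutoff on low counts, *H1f2* and *H1f3* passed, with no other histone gene, and the noncystic +/+ values that enter this are those in which the *H1f3* difference was first noticed. The effect of disease was not shown to depend on the *Pkd2* genotype: 0 of the 47 interactions were called by edgeR, DESeq2 or limma-trend (0.0122% of all genes by edgeR). At an unadjusted p under 0.05 by edgeR there were 2, against 2053 of all 24642 genes: *H3c15* (1.46 ± 0.48) and *H1f2* (0.43 ± 0.20).

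Some of the genes that act on histone mRNA and protein rose, where 12.8% of all genes rose. Of 25 tested genes for transcription and 3′ processing of histone mRNA, 12 rose, 0 fell and 13 did not pass in cystic Δ17/Δ17 kidneys, with a median log2 fold change of 0.32. They included *Slbp*, the stem-loop binding protein (0.39 ± 0.09, adjusted p = 0.00297 by edgeR), *Npat*, the coactivator of histone gene transcription (0.34 ± 0.10, adjusted p = 0.0187), and the S-phase transcription factor *E2f1* (0.89 ± 0.17, adjusted p = 0.00108). *Eri1*, an exonuclease that trims histone mRNA, rose by 0.54 ± 0.13 (adjusted p = 0.00582 by edgeR). Of 24 histone chaperone genes, 14 rose, 0 fell and 10 did not pass, among them *Chaf1a* (1.40 ± 0.15, adjusted p = 6.25e-06 by edgeR) and *Asf1b* (1.55 ± 0.23), which deliver new histones to replicating DNA. Variant histone genes outside the name rule rose in 6 of 9 and fell in 0, with *H2az1* at 249 ± 48.6 and 341 ± 38.0 CPM (SD) and *H3f3b* at 555 and 756 CPM in noncystic and cystic Δ17/Δ17 kidneys (group means).

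S-phase and mitosis genes rose in the same kidneys. Of 33 S-phase genes, 29 rose and 1 fell (*Slc29a1*, a nucleoside transporter) in cystic Δ17/Δ17 kidneys, with a median log2 fold change of 0.91, and all 20 mitosis genes rose, with a median of 1.37. *Mki67*, a marker of cycling cells, rose by 1.37 ± 0.18 (adjusted p = 3.5e-05 by edgeR) and *Pcna*, the replication clamp, by 0.77 ± 0.12 (adjusted p = 0.000193). In the *Pkd2* +/+ mice, 29 S-phase genes passed higher and 2 lower, and 20 mitosis genes passed higher. Set against the summed S-phase level, the 65 histone genes outside the 5 most abundant came to 4.65% ± 1.86 (SD, n = 3) in noncystic and 1.01% ± 0.147 in cystic *Pkd2* +/+ kidneys, and to 3.15% ± 0.708 and 0.895% ± 0.133 in Δ17/Δ17 kidneys. The 6 noncystic mice ranged from 2.59% to 6.62% and the 6 cystic mice from 0.791% to 1.17%, with no overlap. The 65 genes include *H1f3*, and the +/+ mice are those of the comparison on which the family was selected. These percentages are therefore a description and were not tested.

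**Figure D5:**
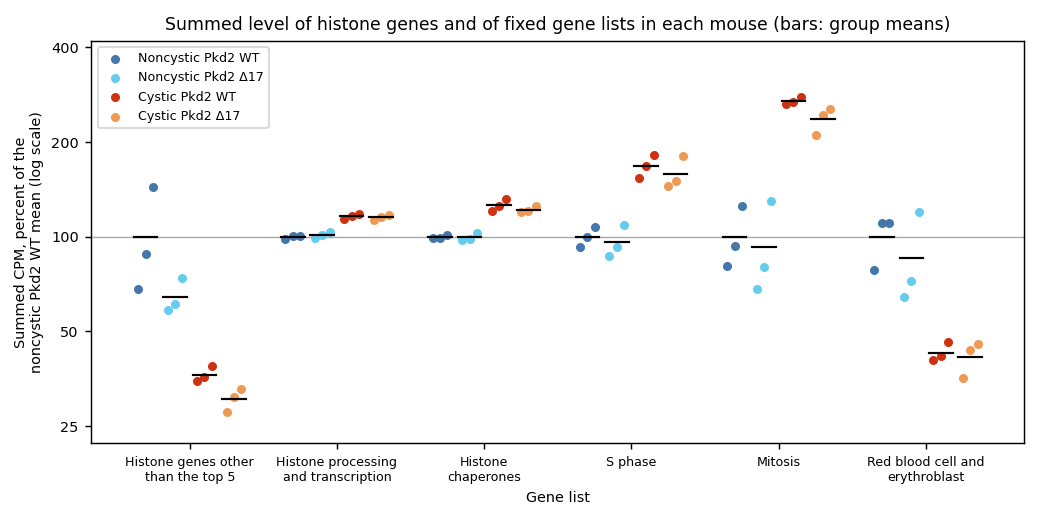
Summed CPM of the 65 histone genes outside the 5 most abundant and of 5 gene lists in each mouse (points), as percent of the noncystic *Pkd2* +/+ mean (y axis, log scale), with bars at group means and the lists along the x axis. The histone sum was 27.7% to 38.9% in the cystic mice, while the mitosis sum was 211% to 278%.

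Markers of several other cell types moved with the same groups. Of 10 red blood cell and erythroblast markers, 7 fell and 0 rose in cystic Δ17/Δ17 kidneys, and their summed level was 759 to 1417 CPM in the 3 noncystic and 420 to 539 CPM in the 3 cystic mice. In *Pkd2* +/+ kidneys 8 passed lower, with 929.8 to 1313 and 478 to 548 CPM. None of these markers was at 0 in all mice, and *Alas2*, the erythroid enzyme of haem synthesis, fell by 1.85 on the log2 scale in Δ17/Δ17 kidneys (SE 0.31, adjusted p = 0.000300 by edgeR). All 6 proximal tubule markers fell (7979 to 9162 against 3400 to 4702 CPM), and all 6 macrophage markers rose (137 to 167 against 254 to 348 CPM). Of 5 nephron progenitor markers 1 fell (38.6 to 51.7 against 30.1 to 38.7 CPM). All 4 distal convoluted tubule markers, 4 of 5 podocyte and 3 of 5 endothelium markers fell, and 4 of 5 fibroblast markers rose. Other lists went both ways or stayed near their level: of 5 thick ascending limb markers 1 rose and 1 fell (3070.2 to 3487 against 3204 to 3295 CPM), and of 6 collecting duct markers 1 rose and 2 fell (796 to 1139.5 against 976 to 1519 CPM). The 7 lymphocyte markers summed to 5.67 to 9.54 and 5.38 to 5.87 CPM, and the 5 germ cell markers, 2 of them at 0 in all mice, to 0.330 to 0.545 and 0.288 to 0.529 CPM. Their part in the histone values was not tested.

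How the RNA was selected bears on transcripts without a poly(A) tail, and the selection is not given in the sources used here. Of 11 listed rows of nuclear RNAs, most but not all of them made without a usual poly(A) tail, 4 were at 0 in all 12 mice (*Rmrp* with 2 rows, *Rnu11* and *Rpph1*), and *Rn7sk* had 11 to 103 reads. Of the 7 rows tested, 3 fell and 0 rose in cystic Δ17/Δ17 kidneys, where 10.2% of all genes fell. Their median log2 fold change was -1.32. The list summed to 1217 to 1738 CPM in noncystic and 668 to 951 CPM in cystic Δ17/Δ17 mice. The abundant *Malat1* and *Neat1* were among the 3, *Neat1* lower by 1.07 ± 0.20 on the log2 scale (adjusted p = 0.000819 by edgeR) and *Malat1* by 0.72 ± 0.18 (adjusted p = 0.00598). Whether the histone reads came from tailed or untailed transcripts was not tested.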

How the data were processed

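Per the labels and the study's methods, total RNA of whole frozen kidneys (18 days) was sequenced, reads were trimmed with Trim Galore 0.6.3 and aligned with STAR 2.5.3a to GRCm38, and STAR counted reads per Ensembl gene. The authors deposited these raw counts for 54532 genes, with no normalization. The strand setting and the RNA selection are not given in the sources used here, so overlapping genes, and reads that fit several near-identical copies, are uncertain. The 343 rows without a gene name hold 0.0225% of the reads.

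The tools were edgeR 4.0.16, DESeq2 1.42.0 and limma 3.58.1 (R 4.3.3). A gene was kept where its log2CPM averaged -3 or more (prior count 2, library totals), which left 24642. TMM factors and 1 mean per group over the 12 mice (8 residual degrees of freedom) entered a quasi-likelihood F-test in edgeR, Benjamini-Hochberg adjusted over all genes, two-sided, threshold 0.05. Each library is 1 mouse. The script was tested on simulated data. Alternatives were library totals and DESeq2 size factors in edgeR, DESeq2's Wald test, limma-trend (prior count 3), no cutoff, a minimum of 10 counts in all mice, only the compared groups, sex from *Xist* and *Ddx3y* as a covariate, and each compared mouse left out. Gene models and exons came from GENCODE M21 (GRCm38), which held all 70 identifiers, and promoters from RefSeq.

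Named were every H1 gene, every member averaging at least 0 in log2CPM or called outside the *Pkd2* +/+ disease comparison, and the most abundant genes of each core type. The members, lists and rules were chosen with earlier results of these data known.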

Additional observations from a re-analysis of the deposited data

How the results depend on the processing

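In cystic Δ17/Δ17 kidneys the 8 falls and the rise of *H1f10* kept their direction under every alternative run. Of the 257 recomputed log2 fold changes of called genes, in both disease comparisons, none changed sign. In the Δ17/Δ17 comparison 8 of them lost their call, and in the +/+ comparison 12 moved by at least their SE. The +/+ part comes from the comparison on which the family was selected and is no evidence. Called genes numbered 9 of 47 in the Δ17/Δ17 comparison. With at least 10 counts in every mouse only 7 members were tested, and 5 were called, 4 lower and 1 higher. Leaving out each compared mouse gave 7 to 9 calls. In the *Pkd2* +/+ comparison, on which the family was selected and whose counts are no evidence, the count of 17 became 5 with at least 10 counts in every mouse and 12 to 19 with a mouse left out, the 12 being without mouse 20 or 27. Calls were lost for *H2bc21* and for *H3c15* as stated beside them, and the cause was not tested. For the deletion in noncystic kidneys the count went from 0 to 2 without the cutoff on low counts, a setting in which 58 members were tested and which uses the noncystic +/+ mice of the selecting comparison. The counts stayed at 0 for the deletion in cystic kidneys and for the interaction under every alternative run, left-out mice included. Summed over all 70 genes, cystic *Pkd2* +/+ kidneys stood at 513 CPM with TMM and 540.3 with library totals, and cystic Δ17/Δ17 kidneys at 508 and 537. For noncystic kidneys these values were 711 and 671 with +/+, and 578 and 549.9 with Δ17/Δ17. The alternatives for *H1f0* and *H4c9* were added after seeing the data. No paired analysis was possible because the mice carry their own numbers and the groups share none. Low counts limit the 48 members with under 10 reads in every mouse, in which only large differences could pass.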

Other observations

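A mouse of the noncystic *Pkd2* +/+ group, mouse 20, had the most reads of the 12 mice on *H1f2* (2832), *H1f3* (169), *H1f4* (92), *H2bc6* (78), *H3c15* (59) and *H4c8* (100), although its total count of 18800307 was the lowest. Its 65 histone genes outside the 5 most abundant summed to 51.7 CPM, against 24.6 and 31.7 CPM in the other mice of its group. The S-phase and mitosis sums of mouse 20, 781 and 298 CPM, lay between those of its group mates (838 and 722 CPM, 399.5 and 257 CPM). With 3 mice in a group, no outlier test was made.

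The H2A gene *Hist1h2ao*, of whose 100-base stretches 92.7% occur in other genes, had 0 to 3 reads in the 6 noncystic mice and 3 to 6 in the 6 cystic mice.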
